A study of Mus musculus with 34 samples.

Results

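Cumulus cells from mice that gained little weight on a high-fat diet (HFD) were compared with cumulus cells from the other mice kept on that diet for the same time. The comparison held 10 of the 34 libraries of the series. They were the 3 that GEO's labels call low weight gainers (replicates 21, 22 and 23) and the 7 of the 16-week HFD group (replicates 6, 10, 11, 12, 14, 15 and 16), and all 25965 entries of the count table were considered. Both groups were C57BL/6J females with no transgene, were placed at 8 weeks of age on a diet with 58% of its energy from fat, stayed on it for 16 weeks and were superovulated. The labels give neither the weights of these mice nor the gain below which a mouse was a low weight gainer. Each library came from about 50 cells of 1 cumulus-oocyte complex and was made by Smart-seq2, in which polyadenylated RNA is copied and amplified before sequencing. The study's methods give these cells as collected per animal, so the libraries are taken as 1 mouse each, and the p-values below measure the spread between them.

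Cumulus cells are granulosa cells wrapped around the oocyte. They break down glucose to pyruvate and pass it to the oocyte through gap junctions, since the oocyte itself uses glucose poorly, and they store and burn lipid, answer FSH and the growth factors the oocyte secretes, and after the ovulatory signal lay down the matrix in which the complex expands. Leptin, the hormone of fat tissue, acts on these cells through its receptor Lepr. The GC content of a transcript, the percentage of its bases that are G or C, differs between gene families and is also a known source of differences between amplified cDNA libraries. Most results below are therefore given on the counts as deposited and again after each library's GC trend was taken out. A fold change given alone is from the counts as deposited.

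The low weight gainer libraries held 3950156 to 6744712 counts and the 16-week HFD libraries 1330297 to 5463108, and a count of 0 in the shallowest library allowed up to 2.26 reads per 1000000 (RPM). Counting error alone is covered by that limit. The 24 pairs of libraries within a group that were checked all differed by more than sampling noise, so none was counted as a repeat. The summed level of 16 cumulus and granulosa cell markers was 9940 to 11800 RPM in the low weight gainers and 4760 to 11500 RPM in 16-week HFD. Gja1 alone gave 8240 to 10100 RPM and 3480 to 10100 RPM of these sums. Of the 14 markers tested, Amhr2 was called higher and Inhba lower. With each library's GC trend taken out, Fshr was called higher and Foxl2 lower. Oocyte markers summed to 13 to 46.3 RPM over the 10 libraries, of which Tle6 alone gave 11.1 to 43.3 RPM. Gdf9 reached at most 1.9 RPM, and 5 of the 20 oocyte markers had no read in any library. Markers of other cells did not move alike. Neutrophil markers, 4 of the 10 without a read in any library, summed to 65.1 and 98.2 RPM in low weight gainer replicates 21 and 23, to 8.74 RPM in replicate 22 and to 5.58 to 12.1 RPM in 16-week HFD, and S100a8 was the member called (log2 fold change 4.72; 38.5, 1.5 and 59.5 RPM in replicates 21, 22 and 23 against 0 to 4.34 RPM). Oviduct epithelium markers reached 453 RPM in 16-week HFD replicate 10 and 339 RPM in low weight gainer replicate 22, against 67.9 to 155 RPM in the others. The part of these other cells in the results below was not tested.

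In the low weight gainers 1212 genes were higher and 1118 lower than in 16-week HFD among 11258 tested, which is 20.7% of them (10.8% higher and 9.93% lower; quasi-likelihood test of edgeR, Benjamini-Hochberg adjusted p under 0.05). Rising genes were mostly GC-rich and falling genes GC-poor. The median transcript GC content was 55.0% for the genes called higher, 43.6% for those called lower and 49.5% for all tested with a GC value. The log2 fold change rose with GC content across 11122 genes (Spearman's rho = 0.52, Pearson's r = 0.51), which describes these genes, since all of them share the same 10 libraries, and 26.5% of its variance lay on a smooth curve of GC content. With transcript length the correlation was weak (rho = -0.11). The number of calls changed with the libraries fitted. It was 596 without low weight gainer replicate 23, 1145 without replicate 21 and 1456 without replicate 22, and between 1796 and 2737 when 1 of the 7 HFD libraries was left out. Losing 1 of 3 libraries costs more power than losing 1 of 7, so these counts are not like for like. Without replicate 23, 583 of the calls were also made in the same direction with all 10 libraries.

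The trend was already present in single libraries. For each library the slope of a gene's log2 counts per 1000000 (CPM), taken relative to the mean of the 10 libraries, was computed against GC content. The slopes of the low weight gainers were 0.47, 0.23 and 0.58 log2 units per 10 percentage points of GC in replicates 21, 22 and 23, and those of 16-week HFD ran from -0.53 in replicate 10 through a median of -0.13 to 0.05 in replicate 11. The groups did not overlap. The means differed by 0.61 (0.43 ± 0.18, SD, n = 3, against -0.18 ± 0.19, n = 7; two-sided exact permutation test, p = 0.00833, the smallest that the 120 splits allow, and 0.0292 after adjustment over 7 library measures). Replicate 22 lay nearest to the HFD libraries. When the 16-week chow diet (CD) libraries were put on the same frame, their 6 slopes spread from -0.21 to 0.67, and CD replicates 1 and 2 at 0.67 and 0.55 were steeper than any low weight gainer library there (0.13 to 0.49), so positive slopes were seen in other mice as well. Slopes on transcript length, in log2 units per doubling, overlapped between low weight gainers (-0.047 ± 0.025, SD) and 16-week HFD (0.020 ± 0.073). The two-sided exact permutation test gave p = 0.167 for them.

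**Figure D1:**
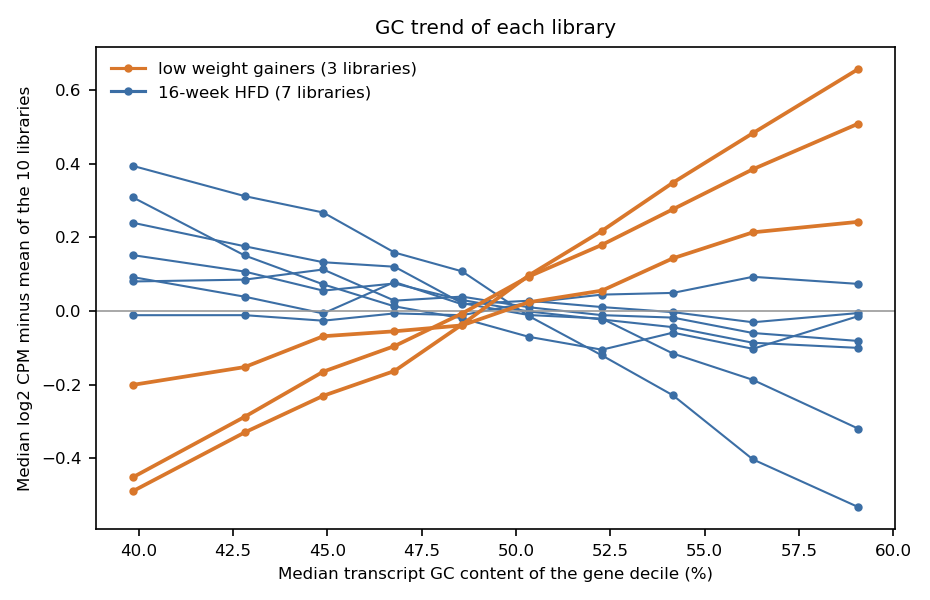
Each line is 1 library; the points are the median, over the genes of a GC decile, of log2 CPM minus the mean of the 10 libraries, plotted against the median GC content of the decile (%). The 3 low weight gainer lines (orange) rise with GC content, with slopes of 0.23 to 0.58 log2 units per 10 percentage points, while the 7 16-week HFD lines (blue) are flat or fall, with slopes of -0.53 to 0.05.

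Among the genes of lowest GC content (28.1% to 41.5%) the median log2 fold change was -0.58, and 0.449% were called higher and 31.4% lower. Among those of highest GC content (57.5% to 68.8%) it was 0.60, and 27.7% were higher and 0.809% lower. A GC offset, in which the smooth GC curve of each library was entered into the edgeR fit, removed this pattern. The rho between log2 fold change and GC content was then 0.02, and the lowest decile had 5.57% of its genes higher and 4.58% lower, the highest 6.38% and 6.92%.

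**Figure D2:**
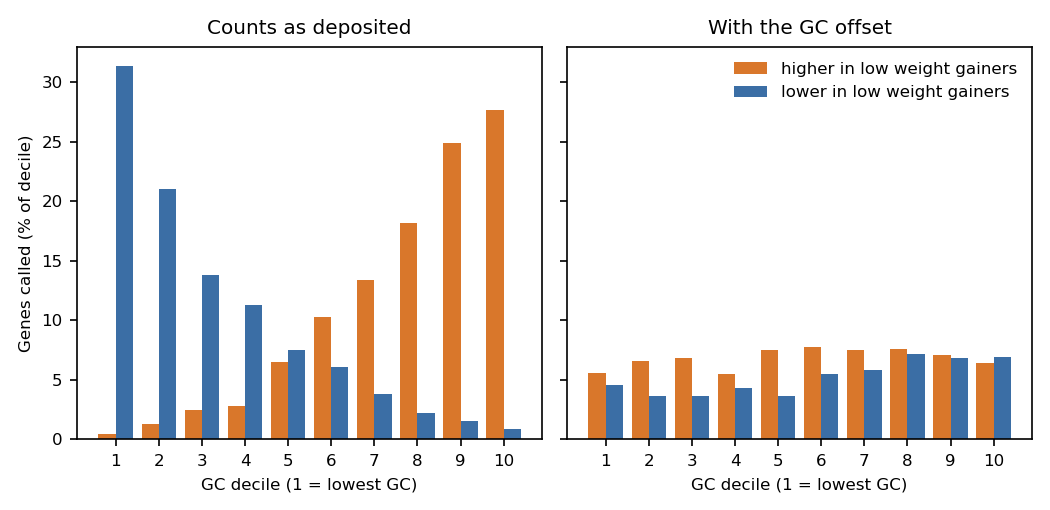
Bars give the percentage of genes in each GC decile (1, lowest; 10, highest) called higher (orange) or lower (blue) in low weight gainers than in 16-week HFD, on the counts as deposited (left) and with the GC offset (right). On the left the share of lower calls falls from 31.4% to 0.809% and that of higher calls climbs from 0.449% to 27.7%; on the right both stay between 3.6% and 7.73% in every decile.

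With the GC offset 1359 genes were called, 12.1% of those tested (769 higher, 6.83%; 590 lower, 5.24%). Of the 2330 genes called without it, 944 (40.5%) were called with it in the same direction and none in the opposite one, 1386 were not called, and 415 genes were called only with it. Higher calls were kept in 46.4% of cases and lower calls in 34.2%. The sign of the fold change stayed the same in 2322 of the 2330, and the median size of their log2 fold changes went from 1.02 to 0.75. When transcript length was added to the offset, 941 genes were called, 8.36% of those tested (588 higher, 5.22%; 353 lower, 3.14%), and 388 genes were higher and 217 lower in all of these fits. The median log2 fold change over all genes was -0.03 without an offset and 0.00 with either. The offset assumes that no GC trend belongs to the groups. A fit with the GC slope of each library as a covariate left 2 genes called (1437 of 11258 at an unadjusted p under 0.05). It also takes out whatever else follows that slope across the libraries. The fold change turned sign in 256 of the 2330 genes called without the covariate. Slope and group were strongly correlated over these 10 libraries (Pearson's r = 0.86), which left the covariate fit little power to detect a group difference. Its few calls therefore do not show that the other genes were unchanged. Beyond the offset the GC trend and the low weight gain cannot be told apart. Without low weight gainer replicate 23 the GC offset gave 174 calls, without replicate 22 it gave 432 and without replicate 21 it gave 569.

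Coding sequences from both ends of the GC range are shown to make the measure concrete. The opening 120 coding bases of 3 genes that rose and 3 that fell are shown from GENCODE M21 transcripts, 5′ to 3′, with every G and C in capitals. Cited4 (chr4:120666803-120666922, plus strand), Rnf126 (chr10:79762661-79766827, minus strand, 2 exons joined) and Pfkl (chr10:78005480-78009683, minus strand, 2 exons joined) rose. Olfr1251 (chr2:89667765-89667884, minus strand), Lmbrd2 (chr15:9149032-9149151, plus strand) and mt-Nd1 (mitochondrial genome, bases 2751 to 2870, plus strand) fell. All positions are GRCm38.
Cited4: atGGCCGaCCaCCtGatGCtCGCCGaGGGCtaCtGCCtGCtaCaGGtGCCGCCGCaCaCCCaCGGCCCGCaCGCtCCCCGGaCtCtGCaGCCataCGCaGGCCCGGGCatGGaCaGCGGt
Rnf126: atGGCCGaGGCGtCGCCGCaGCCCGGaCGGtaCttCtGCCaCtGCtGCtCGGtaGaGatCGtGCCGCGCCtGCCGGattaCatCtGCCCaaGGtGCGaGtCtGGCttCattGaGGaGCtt
Pfkl: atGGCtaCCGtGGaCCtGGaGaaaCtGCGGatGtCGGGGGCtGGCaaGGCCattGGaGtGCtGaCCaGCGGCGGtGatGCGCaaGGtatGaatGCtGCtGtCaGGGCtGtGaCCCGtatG
Olfr1251: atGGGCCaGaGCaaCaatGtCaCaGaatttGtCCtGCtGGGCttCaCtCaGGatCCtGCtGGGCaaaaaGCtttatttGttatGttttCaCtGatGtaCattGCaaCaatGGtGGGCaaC
Lmbrd2: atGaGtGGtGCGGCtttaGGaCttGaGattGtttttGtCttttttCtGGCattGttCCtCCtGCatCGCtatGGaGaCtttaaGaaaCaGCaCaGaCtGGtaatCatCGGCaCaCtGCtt
mt-Nd1: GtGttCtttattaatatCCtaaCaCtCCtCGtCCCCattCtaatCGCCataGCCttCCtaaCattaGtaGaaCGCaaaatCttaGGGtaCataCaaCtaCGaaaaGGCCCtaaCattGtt
G and C made up 70.8%, 63.3% and 60.8% of these stretches in Cited4, Rnf126 and Pfkl, and 45.0%, 44.2% and 39.2% in Olfr1251, Lmbrd2 and mt-Nd1. Over the whole transcripts the contents were 66.4%, 62.7% and 57.1% for those that rose and 32.8%, 37.8% and 37.6% for those that fell. The 6 genes were picked for their GC content after their values were seen, so the contrast between them is no result. Calls against the trend occurred as well, such as the rise of Mrps30 at a GC content of 44.2% and the fall of Gfod1 at 52.6%.

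The largest rises among genes whose RPM did not overlap between the groups, a condition met by 18.5% of all tested genes (12.9% higher, 5.6% lower), were in Inpp5j, a phosphoinositide 5-phosphatase (log2 fold change 2.83), Apbb3 (2.73), Ankrd23 (2.58), Rnf126, a ubiquitin ligase (2.53), Slc29a1, the equilibrative nucleoside transporter (2.48), Pigt, of the complex that attaches GPI anchors (2.45), Zfp523 (2.31), Lipe, the hormone-sensitive lipase (2.26), Sema3b, a secreted semaphorin (2.25), and Cited4, a transcriptional co-regulator (2.12). RPM scale by total counts, under which the middle gene was 0.14 log2 units higher in the low weight gainers, against -0.03 in the fit. Pigt stood at 47.1, 38 and 83.5 RPM in the low weight gainers and at 4.51 to 21 RPM with a median of 8.03 in 16-week HFD. Cited4 had 389, 261 and 813 RPM against 46.3 to 154 RPM with a median of 102. Both were thus higher in every low weight gainer library than in any HFD library, and replicate 23 was the highest. All 10 kept their call with the GC offset and with the GC and length offset, at 1.21 (Cited4) to 2.28 (Apbb3) with the GC offset. Without low weight gainer replicate 23 the adjusted p of Sema3b was 0.0573, and the other 9 kept their call without any 1 library.

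The largest falls were in Olfr1251, an olfactory receptor gene (log2 fold change -2.53), Gfod1 (-2.45), Unc5c, a netrin receptor (-2.33), Lmbrd2 (-2.01), Slc16a9, a monocarboxylate transporter family member (-2.00), Btbd3 (-1.96), Crim1, a membrane protein that binds bone morphogenetic proteins (-1.95), Casc5, a kinetochore protein (-1.92), Pura, a nucleic acid binding protein (-1.92), and Evi2b (-1.91). Crim1 was the most abundant, at 93.4, 77.2 and 83 RPM in the low weight gainers and 125 to 496 RPM with a median of 314 in 16-week HFD. Unc5c had 6.23, 7.24 and 4.3 RPM against 10.3 to 39 RPM with a median of 31.6. Gfod1 and Crim1, with GC contents of 52.6% and 50.3%, were as low with the GC offset as without it (-2.63 and -2.00), whereas the fall of Olfr1251 came to -1.58 (adjusted p = 0.0461). All 10 were called with the GC offset, and 9 of them also with length, where Lmbrd2 had an adjusted p of 0.0885. Slc16a9 (0.0622) and Evi2b (0.0557) were not called without low weight gainer replicate 23.

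Of 19 tested genes of glycolysis 10 were higher in the low weight gainers and none lower, against 10.8% of all tested genes higher and 9.93% lower, and the median log2 fold change was 0.71 against -0.03 for all genes. The shares of all tested genes with the GC offset were 6.83% and 5.24%, and every list below is to be read beside these. Pfkl, the liver phosphofructokinase that commits glucose to breakdown, had 378, 269 and 631 RPM in low weight gainers against 41.5 to 173 RPM, median 112, in 16-week HFD (log2 fold change 1.82 ± 0.28, SE; adjusted p = 0.00103). Hk1, a hexokinase, had 13.2, 13.2 and 26.3 RPM against 2.75 to 6.44 RPM, median 4.23 (1.79 ± 0.31; adjusted p = 0.00171). Pkm, the pyruvate kinase that makes pyruvate, had 680, 576 and 1300 RPM against 165 to 489 RPM, median 302 (1.35 ± 0.28; adjusted p = 0.00402). In all 3 the groups stood apart, with low weight gainer replicate 22 or 21 closest to the HFD libraries. The 16-week CD means were 259 ± 135 RPM for Pfkl, 25.1 ± 31.6 for Hk1 and 776 ± 397 for Pkm (SD, n = 6). The others called were the glucose transporter Slc2a1 (1.25), the lactate transporter Slc16a3 (1.17), Gapdh (1.10), Eno1 (0.98), Pfkp (0.86), Gpi1 (0.77) and Pgam1 (0.71). The median GC content of the list was 53.5%, above the 49.5% of all genes. With the GC offset 4 stayed called (Pfkl 1.37, Hk1 1.36, Pfkp 0.92 and Pkm 0.85) and the median was 0.49. With length as well 3 stayed called and the median was 0.34, Pkm having an adjusted p of 0.0808. With low weight gainer replicate 23 left out, only 2 of the list were called, and Pkm had an adjusted p of 0.0636.

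The citric acid cycle, which burns what glycolysis delivers, had 3 of 22 genes higher and none lower (median 0.19), 13.6% of the list and near the 10.8% of all tested genes called higher. They included the citrate synthase Cs (109, 99.9 and 97.5 RPM against 43.2 to 67.2; log2 fold change 0.72) and the malate dehydrogenase Mdh2 (0.64). Cs levels did not overlap and were alike in the 3 low weight gainers. Under the GC offset Cs (0.68) and, newly, Dlat of the pyruvate dehydrogenase complex (0.76) were called, and with length added none was. The calls of Cs and Mdh2 were not firm. Cs was not called without low weight gainer replicate 21 (adjusted p = 0.0635) or 22 (0.0573), and Mdh2 without any of the 3 low weight gainers (0.0722 to 0.144) or without HFD replicate 11 (0.0538), 14 (0.0587) or 15 (0.0558).

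Calls in nuclear genes of the respiratory chain were mostly lower. Of 37 genes of complex I, 13 were lower and none higher (median -0.67), and of 36 of complexes III, IV and V, 13 were lower and 3 higher (median -0.48), against 9.93% of all tested genes lower and 10.8% higher. Ndufb4, a complex I subunit, had 48.8, 40.2 and 62.8 RPM against 67.9 to 124 RPM, median 88.2 (log2 fold change -1.0 ± 0.24; adjusted p = 0.00847). The low weight gainers were all below the HFD range. Of the other named complex I genes, Ndufb2 fell by 1.02 and Ndufs6 by 0.96, each overlapping the HFD range. In complexes III and IV, Uqcrb (-1.18), Cox7c (-1.17) and Uqcrh (-1.09) fell without overlap. The 3 that rose, Atp5a1 (0.84), Cyc1 (0.82) and Atp5d (0.81), were not called with the GC offset. These are short transcripts of middling GC content, with medians of 971 and 759 bases, 51.5% and 50.3%. The GC offset alone left the medians nearly where they were (-0.65 and -0.54), with 11 and 10 genes lower, but partly other genes, since 6 of the 13 and 8 of the 16 calls were kept. Ndufb2 (adjusted p = 0.0905), Uqcrb (0.0688) and Cox7c (-0.50; 0.202) were not called with it. With length added the medians were -0.29 and -0.19 and the genes lower 5 and 1, with Uqcrb at -0.00 and Cox7c at 0.08. Without low weight gainer replicate 23, 1 gene of each list was lower and Ndufb2 (adjusted p = 0.0755), Ndufs6 (0.0992), Uqcrb (0.0691) and Uqcrh (0.0819) were not called. Ndufb2 (0.0565), Ndufs6 (0.0623) and Uqcrh (0.0584) were likewise not called without replicate 22, nor Cox7c without replicate 21 (0.0557).

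RNA made by the mitochondrial genome was lower as a share of the counts. It took 0.488%, 0.614% and 0.337% of all counts in low weight gainer replicates 21, 22 and 23 and 0.786% to 1.53% in 16-week HFD, with no overlap (means 0.479% ± 0.139, SD, n = 3, and 1.16% ± 0.238, n = 7; two-sided exact permutation test, p = 0.00833, the smallest of 120 splits, adjusted 0.0292). Of the 10 genes tested, 7 were lower (median -1.57). Among them was mt-Nd1, a complex I subunit, at 520, 784 and 299 RPM against 1280 to 2320 RPM, median 1740 (log2 fold change -1.85 ± 0.36; adjusted p = 0.00314). Its groups stood well apart, and the CD libraries held 2540 ± 1760 RPM (SD, n = 6). Also lower were mt-Nd2 (-1.59) and mt-Nd5 (-1.43), at 136 to 238 RPM in the 3 low weight gainers and 311 to 691 RPM in 16-week HFD. Mitochondrial transcripts are GC-poor (median 37.4%). With the GC offset 3 stayed called and the median was -0.89 (mt-Nd1 -1.19; mt-Nd5 -0.73), and with length added only mt-Nd5 was, at a median of -0.77. Without low weight gainer replicate 23, 4 of the list were lower, and the 3 named kept their call without any 1 library.

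Of 78 cytosolic ribosomal protein genes 15 were lower and none higher (median -0.50), against 9.93% of all tested genes lower. Rps27 had 137, 94.2 and 149 RPM against 184 to 475 RPM, median 288 (log2 fold change -1.43 ± 0.32; adjusted p = 0.00603). Rpl6 had 178, 126 and 162 RPM against 220 to 381 RPM, median 241 (-0.91). Rpl35 had 201, 141 and 266 RPM against 293 to 552 RPM, median 313 (-1.15). None of the 3 overlapped, and replicate 22 was the lowest low weight gainer library in each. As a sum, the share of counts in these genes overlapped between the groups (1.16% ± 0.221 and 1.42% ± 0.25; exact permutation test, p = 0.167). Unlike most lists this one had more calls with the GC offset, 20 lower with a median of -0.61, its transcripts being GC-richer than the middle gene (51.7%), and 11 of the 15 were kept. With length added, the list had 9 lower and 1 higher and a median of -0.26. Without replicate 22, 2 of the list were called. Rpl35 was then at an adjusted p of 0.0677 and, without replicate 21, at 0.0512, and Rpl6 without replicate 23 at 0.0589. Many ribosomal protein genes have processed copies elsewhere in the genome, so their counts are uncertain where reads could be shared.

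**Figure D3:**
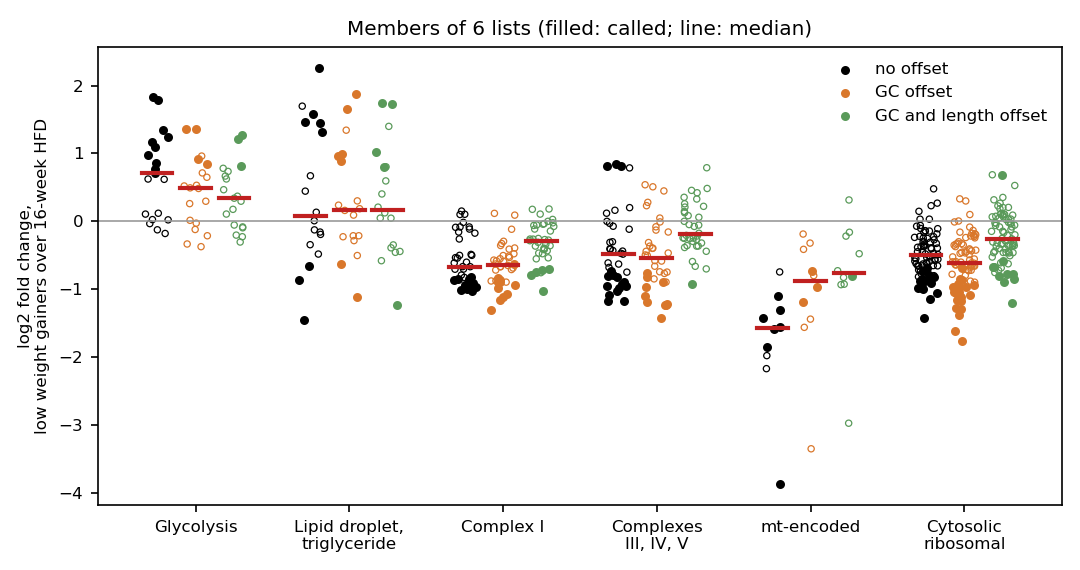
Each circle is a gene of 1 of 6 lists, placed by its log2 fold change (low weight gainers over 16-week HFD) without an offset (black), with the GC offset (orange) and with the GC and length offset (green); filled circles were called and red lines are list medians. The glycolysis median moves from 0.71 to 0.34, those of complex I and of cytosolic ribosomal proteins from -0.67 to -0.29 and from -0.50 to -0.26, and that of mitochondrially encoded genes from -1.57 to -0.77, all keeping their sign.

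Mitochondrial ribosomal proteins had 11 of 75 genes lower and 1 higher (median -0.33). The exception was Mrps30, with 95.3, 92.4 and 170 RPM against 31.2 to 66.1 RPM (log2 fold change 1.21; 1.54 with the GC offset). Mrpl1 (-0.97) and Mrpl32 (-1.04) fell without overlap, but had adjusted p-values of 0.12 and 0.107 with the GC offset, and 0.068 and 0.0822 without low weight gainer replicate 23. The list had 12 lower and 1 higher with the GC offset, 3 of the earlier calls among them, and 2 lower and 2 higher with length. None was lower without replicate 23.

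Translation factors were split, 3 higher and 4 lower of 34 (median -0.16). The initiation factor subunit Eif3b rose (157, 137 and 278 RPM against 41.5 to 86.7; log2 fold change 1.40) while Eif3a of the same complex fell (186, 163 and 176 RPM against 265 to 403; -1.07), and Eif5a rose (0.97). All 3 stayed called with the GC offset (1.00, -0.78 and 0.63), with length and without any 1 library, while the list had 2 higher and 1 lower without low weight gainer replicate 23. Of 20 tRNA synthetases 3 were higher and none lower (median 0.31, and 0.31 with the GC offset), against 10.8% of all tested genes higher. Kars, which charges lysine tRNA, had 277, 257 and 289 RPM against 73.2 to 121 RPM, median 99.2 (1.30 ± 0.18; adjusted p = 0.000963; 1.20 with the GC offset). Mars rose by 1.28 (1.02 with the GC offset). Aars (0.94) was not called with the GC offset (adjusted p = 0.14) or without low weight gainer replicate 23 (0.165).

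**Figure D4:**
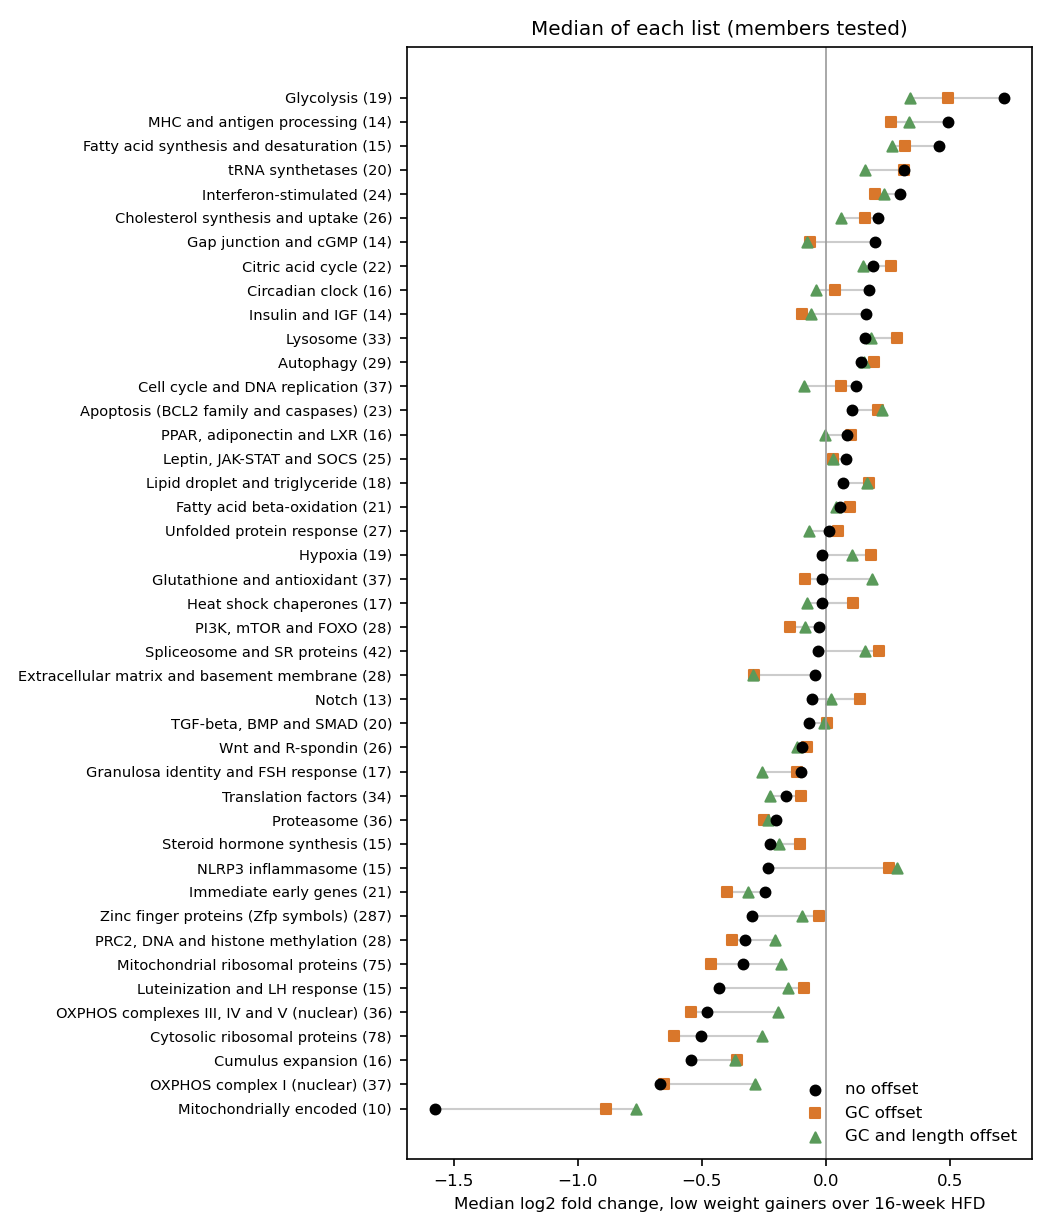
Median log2 fold change (low weight gainers over 16-week HFD) of each list with at least 10 tested genes, the number tested in brackets, without an offset (black circles), with the GC offset (orange squares) and with the GC and length offset (green triangles). Glycolysis is highest (0.71, 0.49 and 0.34) and the mitochondrially encoded genes lowest (-1.57, -0.89 and -0.77), and the NLRP3 inflammasome list crosses 0 (-0.23, 0.25 and 0.28).

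Genes that make and break triglyceride kept most of their calls. Of 18 lipid droplet and triglyceride genes 5 were higher and 3 lower, and 7 of these 8 were kept with the GC offset. Gpam, which takes the opening step of glycerolipid synthesis, had 180, 165 and 254 RPM against 41.7 to 83.9 RPM, median 58.6 (log2 fold change 1.58 ± 0.20; adjusted p = 0.000445), and its GC content of 48.6% left it at 1.65 with the GC offset (adjusted p = 0.00058) and 1.75 with length. Dgat1, which makes triglyceride, had 63.2, 57.9 and 72.7 RPM against 15.4 to 31.6 RPM, median 23.3 (1.31; 0.88 with the GC offset). Lpl, the lipoprotein lipase that releases fatty acids for uptake, fell to 40, 41.7 and 45.6 RPM from 57.6 to 135 RPM, median 99.4 (-1.46; -1.12 with the GC offset). Each of these separated the groups in every library and kept its call with length and without any 1 library. The lipases Pnpla2 (1.46) and Lipe (2.26) and the acyltransferase Agpat2 (1.46) also rose, and Lpin2 (-0.66) and the fatty acid translocase Cd36 (-0.87) fell, Cd36 not being called with the GC offset (-0.21). The list's median was 0.07, and its lower calls were 1 without low weight gainer replicate 21. In 16-week CD, Gpam stood at 212 ± 178, Dgat1 at 63.2 ± 22.9 and Lpl at 103 ± 28.5 RPM (SD, n = 6).

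Fatty acid synthesis and desaturation had 4 genes higher and 1 lower of 15 (median 0.45; 3 higher and none lower with the GC offset). The named ones were the desaturase Fads2 (2.03), Acly, which makes cytosolic acetyl-CoA (1.11), and the elongase Elovl5 (0.91). Acly had 618, 516 and 1340 RPM against 243 to 479 RPM, and Elovl5 323, 304 and 193 RPM against 94.5 to 170 RPM, so the highest library was replicate 23 in the former and replicate 21 in the latter. All 3 were called with the GC offset (1.73, 0.95 and 1.19) and with length. Without replicate 23, 1 of the list was called, Fads2 and Acly having adjusted p-values of 0.108 and 0.161, and Elovl5 was not called without replicate 21 (0.0988) or 22 (0.107). Beta-oxidation, which burns fatty acids, had 4 of 21 higher and none lower (median 0.05, 0.09 with the GC offset). Cpt2, of mitochondrial fatty acid import, had 86.4, 60.2 and 96.2 RPM against 22.6 to 50.7 RPM (1.10; 0.92 with the GC offset) and kept its call without any 1 library. Cpt1c rose by 1.45 and Acadm by 0.78, both also with the GC offset (0.96 and 0.89), but Cpt1c was not called with length (adjusted p = 0.108). Without replicate 23, 1 of this list was called and Cpt1c (0.0606) and Acadm (0.101) were not, nor was Acadm without replicate 21 (0.0566) or 22 (0.0521).

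Cholesterol synthesis and uptake had 4 of 26 genes higher and 1 lower (median 0.21; 3 higher with the GC offset). Scarb1, the receptor that takes up cholesterol from HDL, had 298, 260 and 429 RPM against 82.8 to 177 RPM, median 108 (log2 fold change 1.28; 0.87 with the GC offset), and 568 ± 588 RPM in 16-week CD (SD, n = 6). The mevalonate kinase Mvk had 28.6, 20.2 and 25.6 RPM against 1.93 to 12.3 RPM (1.63; 1.07 with the GC offset). Both separated the groups. Mvd (1.32), a later enzyme of that route, overlapped and was not called with the GC offset (adjusted p = 0.177) or without low weight gainer replicate 21 (0.0929) or 23 (0.0896), and 2 genes of the list were higher without replicate 21. Among 16 genes of PPAR, adiponectin and liver X receptor (LXR) signaling 5 were higher and 2 lower (median 0.08). Nr1h2, which encodes an LXR, rose (50.1, 49 and 144 RPM against 5.06 to 29.2; 2.09, and 1.45 with the GC offset), and Abca1, a cholesterol exporter that LXRs are known to induce, fell (42.3, 51.7 and 57.5 RPM against 81.4 to 137; -1.30, and -1.16 with the GC offset). Neither overlapped, and both kept their call with length and without any 1 library. Rxrb rose by 1.31 but was not called with the GC offset (adjusted p = 0.0776). With it the list had 3 higher and 1 lower. The count of lower genes was 1 without HFD replicate 12.

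Steroid hormone synthesis had 1 of 15 genes higher and none lower (median -0.23, -0.10 with the GC offset). That gene was Cyp11a1, which cuts the side chain of cholesterol (log2 fold change 1.28; 1.08 with the GC offset), named as the only call of its list and so after its values were seen. The cells' defining marker Fshr, the FSH receptor, had 12.8, 17.2 and 19 RPM against 1.69 to 12.8 RPM, median 6.01 (1.23; adjusted p = 0.0591), so replicate 21 matched the highest HFD library. It was called with the GC offset (1.41; adjusted p = 0.048), not with length (0.0927), and without HFD replicate 15 (0.0424) or 6 (0.018). The list of granulosa identity and FSH response had 1 of 17 higher and 2 lower (median -0.10; the same counts with the GC offset, with 1 of the calls kept). The inhibin subunit genes Inhba (-1.07) and Inhbb (-0.90) were lower and Amhr2, the receptor of anti-Müllerian hormone, higher (0.94). The GC offset moved Inhba and Inhbb in opposite directions. Inhba (41.4% GC) was not called with the offset (-0.60; adjusted p = 0.171), while the fall of Inhbb (60.9% GC) came to -1.54 (0.00538). Amhr2 was at 0.43 (0.292). All 3 were sensitive to single libraries. Inhba was not called without low weight gainer replicate 22 (0.0628) or 23 (0.0703), Amhr2 without any of the 3 low weight gainers (0.0808 to 0.132) or HFD replicate 14 (0.0537) or 16 (0.0549), and Inhbb without any of the 3 (0.064 to 0.153) or HFD replicate 12 (0.051) or 16 (0.0611).

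Of 16 cumulus expansion genes 4 were lower and none higher (median -0.55), against 9.93% of all tested genes lower, and Ptx3 (adjusted p = 0.71) and Tnfaip6 (0.34), matrix proteins of the expanded cumulus, were not called. Vcan, a matrix proteoglycan, had 378, 289 and 328 RPM against 431 to 710 RPM, median 647 (log2 fold change -1.04; -0.70 with the GC offset), with no overlap. With length added Vcan was at -0.32 and not called (adjusted p = 0.326). Ptgs2, which makes prostaglandins, had 28.5, 42 and 35.9 RPM against 36.4 to 88.7 RPM (-0.89) and was at -0.35 with the GC offset (adjusted p = 0.402). Btc, an EGF-like ligand, fell by 0.92. The remaining call was for 1 of the entries that share the symbol Pde4d, a cAMP phosphodiesterase (chromosome 13, start 109954109; 2.08, 0.5 and 1.01 RPM against 2.26 to 6.24; -1.89). That entry had no GC value, so the offset did not act on it. Its levels lay near the 2.26 RPM that a count of 0 allows in the shallowest library. No other entry of that symbol was called in the list. Under the GC offset 2 of the list were lower (median -0.36), with length 1, the Pde4d entry. With low weight gainer replicate 23 left out, 1 was lower and the Pde4d entry had an adjusted p of 0.0992 (0.0719 without replicate 22), and Ptgs2 was not called without replicate 21 (0.166) or 23 (0.16) or HFD replicate 10 (0.053), 14 (0.0699) or 16 (0.0661).

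Luteinization and LH response genes had 1 of 15 higher and 2 lower (median -0.43; 2 higher and 2 lower with the GC offset, median -0.09). Prlr, the prolactin receptor, had 287, 207 and 254 RPM against 362 to 1060 RPM, median 648 (log2 fold change -1.59; -1.01 with the GC offset). It was not called with length (adjusted p = 0.11). Cebpb, a transcription factor of the LH response, had 78.4, 55.2 and 223 RPM against 9.16 to 41.5 RPM (1.88; 0.92 with the GC offset). Both separated the groups, but the level of Cebpb in replicate 23 was far above the other low weight gainers and its adjusted p without that library was 0.0698, while Prlr kept its call without any 1 library. Rgs2 (-1.64) overlapped, had an adjusted p of 0.0584 with the GC offset, and of 0.0568 and 0.113 without replicates 21 and 23. Without replicate 23 none of the list was higher, and without replicate 21, 1 was lower.

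Receptors and SMADs for oocyte-secreted and other TGF-beta family factors had 3 of 20 genes lower and none higher (median -0.07, 0.00 with the GC offset), against 9.93% of all tested genes lower. Smad4, the SMAD shared by all branches, had 41.8, 51.5 and 46.6 RPM against 75 to 96 RPM, median 84.2 (log2 fold change -1.04 ± 0.19; adjusted p = 0.00225). Its GC content of 49.4% left it at -1.02 with the GC offset and -1.20 with length. Bmpr2, the receptor for oocyte BMP15 and GDF9, had 6.23, 3.5 and 5.57 RPM against 6.51 to 22.1 RPM (-1.76; -1.27 with the GC offset), so replicate 21 lay just under the lowest HFD library, and was not called with length (adjusted p = 0.13). Acvr2a, an activin receptor, fell by 1.22, and had an adjusted p of 0.0782 with the GC offset. None of the 3 lost its call without 1 library.

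The leptin receptor Lepr was not called. It had 9.49, 8.99 and 14.9 RPM in the low weight gainers against 8.88 to 19 RPM, median 14.5, in 16-week HFD (log2 fold change -0.62 ± 0.29; adjusted p = 0.135), overlapping in all 3 libraries, and was at -0.14 with the GC offset. In 16-week CD it had 29.1 ± 15.3 RPM (SD, n = 6). Of 25 leptin, JAK-STAT and SOCS genes 3 were higher and 1 lower (median 0.08; 2 and none with the GC offset, none with length). They were Pias3, an inhibitor of STAT3 (1.34), Stat6 (0.96) and Socs3, the feedback inhibitor of leptin signaling (2.11), and the phosphatase Ptpn2 (-0.69). Pias3 and Stat6 kept their call with the GC offset, and Socs3 had an adjusted p of 0.138. The ranges of all 4 overlapped. Without low weight gainer replicate 23 none of the list was higher (Pias3 0.134, Stat6 0.132), and Ptpn2 was not called without any of the 3 low weight gainers (0.101 to 0.146) or HFD replicate 14 (0.061).

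Insulin and IGF genes had 1 of 14 higher and 2 lower (median 0.16; none and 2 with the GC offset, none with length). Grb2, an adaptor of growth factor receptors, had 64.2, 60.9 and 66.6 RPM against 20.3 to 41.7 RPM (log2 fold change 0.75), Pappa, a protease that frees IGF, fell by 2.20 and the insulin receptor Insr fell by 0.78. With the GC offset Pappa was called (-2.01) and Grb2 (adjusted p = 0.0666) and Insr (0.103) were not. Single libraries decided these calls. Pappa was not called without low weight gainer replicate 23 (0.0868), Grb2 without any of the 3 (0.0684 to 0.0783), and Insr without replicate 22 (0.128) or 23 (0.233) or HFD replicate 14 (0.0552) or 16 (0.0651). Downstream, 4 of 28 PI3K, mTOR and FOXO genes were higher and 5 lower (median -0.03). Akt1, the kinase that PI3K signaling activates, had 16.3, 13.5 and 29.6 RPM against 4.1 to 9.02 RPM (1.62). It separated the groups, and its CD mean was 21.4 ± 21 RPM (SD, n = 6). Of the 9 calls 2 were kept with the GC offset, Akt1 among them (1.01), and with length Akt1 was not called (adjusted p = 0.0614). Akt2 (1.14) and Rps6kb2 (1.31) also rose, and Pik3ca (-0.99), Rictor (-0.92) and Pdpk1 (-0.84) were among those that fell. Pik3r2 (1.66) had an adjusted p of 0.0631 with the offset and 0.142 without replicate 23, when 1 of the list was higher. Without replicate 22, 2 were lower.

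**Figure D5:**
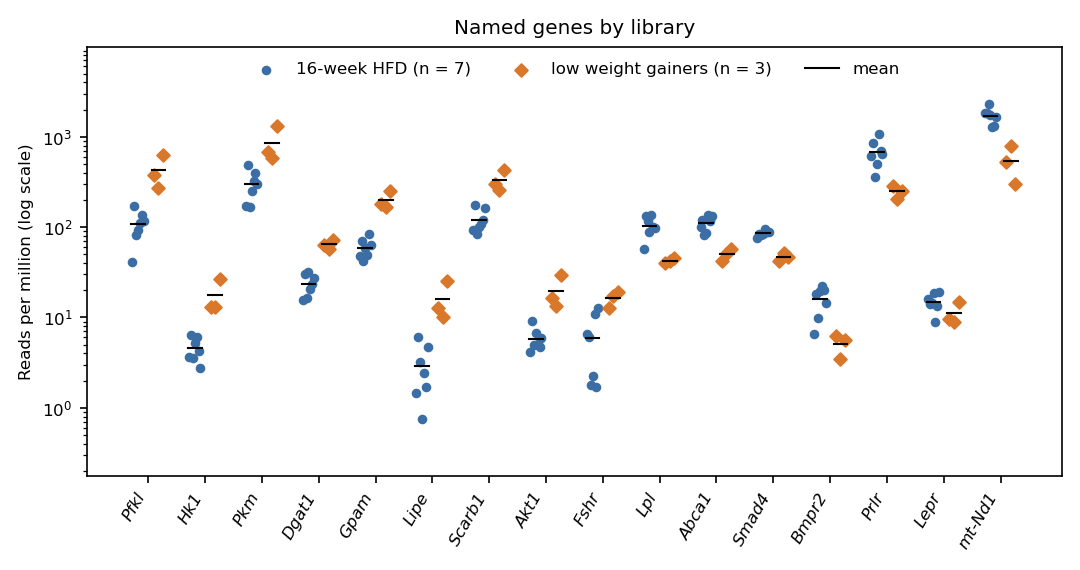
RPM (log scale) of 16 named genes in each 16-week HFD library (blue circles, n = 7) and each low weight gainer library (orange diamonds, n = 3), with group means as lines. Pfkl, Gpam and Dgat1 lie wholly higher and Lpl, Abca1 and Smad4 wholly lower in the low weight gainers, whereas Lepr overlaps and Fshr of low weight gainer replicate 21 meets the highest HFD library at 12.8 RPM.

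Nlrp3, the sensor of the inflammasome the study is about, had no read in any of the 10 libraries, which allows up to 0.445 RPM in the deepest and 2.26 RPM in the shallowest. Of 15 tested genes around it 4 were higher and 1 lower (median -0.23; 2 higher and none lower with the GC offset, median 0.25). Gsdmd, whose cleaved product forms pores in the membrane, had 19, 18 and 24.8 RPM against 3.18 to 11.2 RPM, median 6.77 (log2 fold change 1.42; 1.13 with the GC offset and 1.06 with length), with no overlap and no loss without any 1 library. The NF-kB subunit Rela (1.35) and the adaptor Myd88 (0.91) were not called with the GC offset (adjusted p = 0.0769 and 0.0731), nor without low weight gainer replicate 23 (0.0921 and 0.0829), nor Myd88 without replicate 22 (0.0584). Il1rn, the decoy ligand of the interleukin 1 receptor, rose (1.55; 1.81 with the GC offset) and Brcc3 fell by 0.72. Without replicate 23, 1 gene was higher and none lower.

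Antigen presentation had 4 of 14 genes higher and none lower (median 0.49), and none with the GC offset (median 0.26). H2-K1, a class I heavy chain, had 281, 307 and 333 RPM against 136 to 195 RPM (log2 fold change 0.75), a gap wider than the spread of either group, yet with a GC content of 56.3% it was at 0.33 with the offset (adjusted p = 0.254). The peptide transporters Tap1 (1.35) and Tap2 (1.14) overlapped and had adjusted p-values of 0.0561 and 0.145 with the offset. Of 24 interferon-stimulated genes 2, Tap1 and Irf7 (1.18), were higher and none lower (median 0.30), and neither was kept with the offset (Irf7 0.127). MHC genes are close copies of each other, so their counts are uncertain. When low weight gainer replicate 23 was left out, 1 gene of the former list and none of the latter was higher (Tap1 0.107, Tap2 0.296, Irf7 0.272). Tap2 and Irf7 were also not called without replicate 21 (0.0669 and 0.0664) or HFD replicate 14 (0.051 and 0.0514).

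In the unfolded protein response 4 of 27 genes were higher and 1 lower, and with the GC offset 6 were higher and none lower, the 4 among them (medians 0.01 and 0.05). Edem1, which draws misfolded proteins out for degradation, had 179, 189 and 246 RPM against 78.1 to 117 RPM (log2 fold change 0.85; 1.04 with the GC offset). Pdia6, a disulfide isomerase, had 616, 524 and 957 RPM against 209 to 421 RPM (1.01; 1.07 with the GC offset), and the co-chaperone Dnajb11 had 92.5, 94.4 and 158 RPM against 36.4 to 81.3 RPM (0.94; 0.90). None overlapped. Under the GC offset the chaperone Hspa5 (0.81) and Serp1 (1.07) were called as well. Edem1 kept its call without any 1 library, but without low weight gainer replicate 23 it was the call that remained in the list, Pdia6 being at 0.0815 and Dnajb11 at 0.104. The list of heat shock chaperones and their regulator had 1 of 17 higher and 3 lower (median -0.02; none and 3 with the GC offset). Hsp90aa1 had 233, 173 and 172 RPM against 340 to 534 RPM (-1.32; -0.97 with the GC offset), and Hsp90ab1 (-0.73) and the mitochondrial chaperonin Hspe1 (-0.79) were lower as well. The gene that was higher was the transcription factor Hsf1 (1.08), though not with the offset (adjusted p = 0.228). Hspe1 was not called without replicate 22 (0.0898) or 23 (0.105), nor Hsf1 without replicate 21 (0.108) or 23 (0.198) or HFD replicate 12 (0.058) or 14 (0.0624), and without replicate 22, 1 of the list was lower.

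Lysosomal genes had 8 of 33 higher and none lower (median 0.16; 4 higher with the GC offset, median 0.29, 3 of them kept). Naglu, a hydrolase, had 19.7, 13.5 and 29.4 RPM against 4.24 to 8.16 RPM (log2 fold change 1.56; 0.94 with the GC offset), and the channel Mcoln1 had 57.4, 54 and 76.5 RPM against 21.5 to 37.3 RPM (0.98; 0.58). Neither overlapped or lost its call without 1 library, but neither was called with length (adjusted p = 0.0701 and 0.101). Grn (0.78) was not called with the offset (adjusted p = 0.169) or without low weight gainer replicate 21 (0.0506) or 23 (0.0746), and 3 of the list were higher without replicate 23. Autophagy had 4 of 29 higher and 1 lower (median 0.14). Atg9a, a membrane carrier, rose (1.60; 1.19 with the GC offset) and was the call kept, while Rb1cc1 (-0.91) and Atg13 (0.77) were not (0.355 and 0.0965), the list having 1 higher and 2 lower with the offset. Rb1cc1 was not called without replicate 21 (0.0621), nor Atg13 without replicate 22 (0.0941) or 23 (0.194), and without replicate 22, 1 gene of the list was higher. Of 36 proteasome genes 2 were higher and 4 lower (median -0.20; 1 and 2 with the GC offset, none with length). Psma4 (-0.97) and Psmd2 (0.71) were kept with the GC offset (-0.71 and 0.61) and Psma2 (-1.04) was not (0.259). All 3 were not called without replicate 23 (0.072, 0.114 and 0.146), nor Psmd2 and Psma2 without replicate 21 (0.0521 and 0.0532), and no proteasome gene was higher without replicate 21 or lower without replicate 23.

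Glutathione and antioxidant genes had 5 of 37 higher and 2 lower (median -0.02; 1 and 2 with the GC offset). Txnrd2, the mitochondrial thioredoxin reductase, had 55.9, 46.5 and 39.7 RPM against 13.3 to 33.1 RPM (log2 fold change 0.98; 0.66 with the GC offset, adjusted p = 0.0518). Prdx5 rose by 0.74, and at a GC content of 58.3% was at 0.18 with the offset (0.605). Gpx8 fell by 1.09, and by 0.78 with the offset (0.0437), and was not called with length (0.153). Txnrd2 was not called without low weight gainer replicate 21 (0.0602), nor Prdx5 (0.112) and Gpx8 (0.071) without replicate 23, and 1 of the list was higher without replicate 21. Among 19 hypoxia genes 3 were higher and 2 lower (median -0.01; 2 and 3 with the GC offset). Egln2, an oxygen-sensing hydroxylase, had 23, 31 and 44.6 RPM against 3.76 to 16.1 RPM (1.37), and with a GC content of 62.2% was not called with the offset (0.112). P4ha2 (1.08) and Loxl2 (-0.92), which modify collagen, were called with it (0.78 and -1.05) and not without replicate 23 (0.065 and 0.0721). Without that library 1 of the list was higher and none lower, and with length P4ha2 was not called (adjusted p = 0.0926).

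Cell cycle and DNA replication had 3 of 37 genes higher and 1 lower (median 0.12; 2 and 2 with the GC offset, 3 of the 4 kept). Mcm2, of the replicative helicase, had 37.7, 28 and 26.6 RPM against 3.6 to 15.6 RPM, median 6.37 (log2 fold change 1.84; 1.47 with the GC offset), and Mcm7 of the same ring rose by 1.11 (0.87). Top2a, of dividing cells, had 62.7, 45.7 and 49.1 RPM against 68.7 to 137 RPM (-1.22; -0.86). None overlapped, and Mcm7 alone was not called without low weight gainer replicate 23 (adjusted p = 0.0753), where 1 of the list was higher. Mcm7 was likewise not called with length (0.0736). Apoptosis genes had 2 of 23 higher and 3 lower (median 0.11; 2 and 2 with the GC offset). Bcl2l1, an inhibitor of cell death, had 55.5, 39.7 and 120 RPM against 5.06 to 26.6 RPM (2.04; 1.64 with the GC offset). Xiap, which blocks caspases, had 33.5, 38.7 and 40.5 RPM against 55.4 to 131 RPM (-1.57; -0.85), and was not called with length (adjusted p = 0.0684). Bcl2l1 and Xiap kept their call without any 1 library, while the list had 1 higher without replicate 21 and 2 lower without replicate 23.

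Immediate early genes had 2 of 21 higher and 2 lower (median -0.24; 1 and 2 with the GC offset). Nr4a1 (18.8, 12.7 and 29.6 RPM against 3.18 to 10.7; log2 fold change 1.35) and Jund (1.81) rose and Fos (9.04, 11.2 and 5.57 RPM against 12 to 18.9; -0.83) fell, each without overlap. With the offset Nr4a1 (0.88) and Fos (-0.96) were called and Jund (adjusted p = 0.152) was not. Nr4a1 was not called with length (0.109). Nr4a1 (0.0697) and Jund (0.146) were not called without low weight gainer replicate 23, when none of the list was higher, and Fos was not called without low weight gainer replicate 21 (0.131) or 23 (0.274) or without any 1 of the HFD libraries other than replicate 6 (0.0571 to 0.074). Of 16 clock genes 3 were higher and 2 lower (median 0.17; 2 and none with the GC offset). Rora fell (-0.89) and Bhlhe40 (0.93) and Per1 (1.39) rose, and of these Bhlhe40 was called with the offset (0.96; Rora 0.164, Per1 0.159). Bhlhe40 was not called with length (adjusted p = 0.0582). None of the list was called without replicate 23 (Rora 0.0719, Bhlhe40 0.187, Per1 0.137), and Per1 was not without replicate 22 (0.0768).

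Notch genes had 2 of 13 higher and none lower (median -0.05; 2 with the GC offset, 1 of them kept). Ncstn, of gamma-secretase, had 267, 311 and 382 RPM against 44.6 to 164 RPM (log2 fold change 1.37; 1.26 with the GC offset, and called with length and without any 1 library). Heyl, a Notch target, rose (1.36) but had an adjusted p of 0.0682 with the offset, 0.0506 without low weight gainer replicate 22 and 0.0855 without replicate 23, and 1 of the list was called without replicate 22. Wnt and R-spondin genes had 2 of 26 higher and 3 lower (median -0.10; 2 and 2 with the GC offset). Dvl3 (1.57; 1.22) rose and Apc (-1.45; -1.14) fell, both called without any 1 library, and Lgr5, an R-spondin receptor, fell (-1.001) but overlapped, had an adjusted p of 0.0758 with the offset, and was not called without replicate 21 (0.145) or 23 (0.202) or HFD replicate 11 (0.0543), 12 (0.0503) or 14 (0.0536). Apc was not called with length (adjusted p = 0.0979). The list had 1 higher without HFD replicate 14 and 1 lower without HFD replicate 12.

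Extracellular matrix and basement membrane genes had 3 of 28 higher and 4 lower (median -0.04), and with the GC offset 3 higher and 6 lower, 6 of the 7 kept (median -0.29). Lama1, a laminin chain of basement membranes, had 179, 170 and 161 RPM against 31.8 to 69.1 RPM, median 54.9 (log2 fold change 1.59 ± 0.19; adjusted p = 0.000373), at 1.34 with the GC offset and 1.61 with length, and 231 ± 210 RPM in 16-week CD (SD, n = 6). The 3 low weight gainer libraries were close to each other and all above the HFD range. The basement membrane collagens parted, Col4a2 rising (1.00) and Col4a5 falling (-0.98), with Nid1 also lower (-1.04). With the offset Col4a2 was not called (0.425) and Col4a5 was (-1.08). Col4a2 was not called without low weight gainer replicate 21 (0.125), nor Col4a5 without replicate 22 (0.0503) or 23 (0.153), and without replicate 23 none of the list was lower. Gap junction and cGMP genes had 1 of 14 higher, Impdh1 of guanine nucleotide synthesis (1.44), and 1 lower, the Pde4d entry above (median 0.20). Impdh1 was not called with the offset (0.165) or without replicate 21 (0.0667) or 23 (0.206).

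Regulators of RNA and chromatin moved in both directions. Of 42 spliceosome and SR protein genes 6 were higher and 7 lower (median -0.03), and with the GC offset 7 were higher and 2 lower, 4 of the calls kept (median 0.21). Sf3b4 rose (log2 fold change 1.87; 1.45 with the offset) and Snrpd3 fell (-1.01; -0.89). Snrpd3 was not called without low weight gainer replicate 23 (0.0746), where 2 of the list were higher and 1 lower. Genes of PRC2, DNA and histone methylation had 1 of 28 higher and 4 lower (median -0.33; none and 2 with the GC offset). The histone methyltransferase genes Mll3 (50.1, 45 and 37.5 RPM against 60.7 to 99.2; -1.09) and Wbp7 (21.1, 20.5 and 18.7 RPM against 4.95 to 11; 1.09) moved apart without overlap, and with the offset Mll3 was called (-0.97) and Wbp7 was not (0.213). Setd2 (-0.73) was not called with it (0.155) or without replicate 21 (0.101) or 23 (0.0891), and 1 of the list was lower without replicate 21. Mll3 was not called with length (adjusted p = 0.0748). Of 287 zinc finger genes, whose transcripts are GC-poor (median 44.8%), 12 were higher and 44 lower (median -0.30), against 10 and 14 with the offset (median -0.03). Zfp871 (-1.78; -1.23) and Zfp292 (-1.37; -0.84) fell with and without it, but neither was called with length (adjusted p = 0.0576 and 0.148). Without replicate 23 the list had 3 higher and 10 lower. Many of these genes are close paralogs, so their counts are uncertain.

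Fitted together with the 6 libraries of 16-week CD, whose levels spread more widely, 61 of the 138 named genes tested were no longer called. In glycolysis and the citric acid cycle these were Hk1 (adjusted p = 0.106), Cs (0.0694) and Mdh2 (0.31), while Pfkl and Pkm stayed called. All 6 named nuclear respiratory chain genes that were lower lost their call (Ndufb4 0.253, Ndufb2 0.206, Ndufs6 0.144, Uqcrb 0.0754, Cox7c 0.173 and Uqcrh 0.0671), as did mt-Nd5 (0.0887), and so did Rps27 (0.0549), Rpl6 (0.0995) and Rpl35 (0.233) of the ribosome. Of the lipid genes Scarb1 (0.106), Mvd (0.0526), Fads2 (0.082), Elovl5 (0.0543), Cpt1c (0.101) and Acadm (0.171) lost theirs, and Gpam, Dgat1 and Lpl kept it. Among the signaling and ovarian genes Ptgs2, Inhba, Inhbb, Amhr2, Rgs2, Bmpr2, Pias3, Stat6, Ptpn2, Pappa, Grb2, Insr and Pik3r2 were not called (0.0543 to 0.235), whereas Smad4, Vcan, Prlr and Akt1 were.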

How the data were processed

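Cumulus cell libraries were made with Smart-seq2 and Nextera XT. Per the labels, the authors trimmed reads with Trim Galore 0.4.2 and aligned them with HISAT2 2.0.5 to GRCm38, and they deposited raw read counts per gene, 1 column a library. These reads carried no molecular identifiers. From those counts the 10 libraries were fitted with edgeR 4.0.16 (R 4.3.3; filterByExpr, TMM, robust quasi-likelihood F-test, Benjamini-Hochberg adjustment, adjusted p under 0.05), which tested 11258 of 25965 entries. RPM are counts per 1000000 of a library's total. Depth was 1330297 to 6744712 counts, and a count of 0 allows 3 counts (95%).

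GC content and length were those of the longest coding transcript in GENCODE M21 (22631 entries found by their symbol and 1957 by an older one). Of these entries 14421 had the same start and end as the gene in GENCODE M21. For the others GC content and length may take in bases that were not counted. Olfr1251, for example, was counted over chr2:89666901-89667940 but was given a transcript of 3133 bases. For the GC offset, each library's log2 CPM deviations (prior count 1) were smoothed on GC content (lowess, span 0.5) and added to the edgeR offsets, and the GC and length offset smoothed the remainder on log2 length as well. Scripts were tested on simulated data. Alternatives were DESeq2 1.42.0, limma-voom (limma 3.58.1), other scalings, filters, depths and covariates, and each library left out. Adding the 16-week CD libraries to the fit was another, and leaving out libraries under the GC offset and GC of the coding sequence were added after the data had been seen.

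The 51 gene lists (43 pathways, 8 cell markers) and the choice of groups were made with earlier results of these data known, so no list was tested as a set, and no p-value refers to a list. Named were the 10 largest rises and 10 largest falls among genes called, without overlap in RPM, at 10 RPM or more in a group and with a regular symbol, up to 3 called genes of smallest adjusted p in each pathway list with at least 2, and Lepr, Nlrp3 and Fshr. Others are named only as members of a list. A few genes that this rule would name are not reported here. Columns of the table were matched to samples by their titles.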

Additional observations from a re-analysis of the deposited data

Results flagged for a closer look

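Of 195 sets of 7 HFD values examined, 14 held a library that stood apart from the other 6 by Dixon's test at the 95% level, which chance gives in about 1 set in 20. In 16-week HFD replicate 11, Pigt was at 21 RPM (4.51 to 10.1 in the other HFD libraries), Fos at 18.9 (12 to 13.7) and Lgr5 at 42.9 (16.1 to 25.6). In replicate 12, Ndufb4 was at 124 RPM (67.9 to 91.2), in replicate 14, Mrpl1 at 174 (87 to 122), and in replicate 15, Rpl6 at 381 (220 to 255). Rxrb was at 17.8 RPM in replicate 6 (7.95 to 12) and Inhba at 115 RPM in replicate 10 (257 to 359), the latter on the side of the low weight gainers (104 to 176 RPM).

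Summed lists stood apart as well. Replicate 6 had 1320 RPM of leptin, JAK-STAT and SOCS genes (1650 to 1840 in the others) and 1360 RPM of Notch genes (2930 to 3900). Replicate 15 had 1040 RPM of interferon-stimulated genes (689 to 826) and 690 RPM of macrophage and leukocyte markers (200 to 411). Replicate 10, the library with the steepest negative GC slope, had 139 RPM of red blood cell markers (0 to 34.8) and 453 RPM of oviduct epithelium markers (72.5 to 155). The part of these cells in the results was not tested.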

How the results depend on the processing

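No paired analysis was possible because the labels link no low weight gainer to a mouse of the 16-week HFD group. The 2330 calls (1212 higher, 1118 lower) were within 1.5 times with DESeq2 (2848), limma-voom (3285), RLE scaling (2330), no filter on low counts (2098), at least 10 counts in every library (1975), counts drawn down to the smallest library (1799) and a length offset (1968). They were 716 (394 higher, 322 lower) when the 16-week CD libraries, with their wider spread, were also fitted, 1359 (769 and 590) with the GC offset, 941 (588 and 353) with the GC and length offset and 2 (1 and 1) with the GC slope as a covariate. With 1 library left out the calls were 596 to 2737, the higher ones 339 to 1291 and the lower ones 257 to 1446, the fewest without low weight gainer replicate 23 and the most without HFD replicate 6. The causes of these library effects were not tested. With the GC offset they were 174 to 1793, the higher ones 137 to 883 and the lower ones 37 to 910, between the same libraries, and 1566 when the GC content was that of the coding sequence. They were 569 (401 higher, 168 lower) without replicate 21, 432 (312 and 120) without replicate 22 and 877 (357 lower) without HFD replicate 14. The difference in GC slope kept its direction and its call, at 0.48 with coding GC, 0.61 with RLE, 0.52 with at least 10 counts and 0.53 to 0.72 with 1 library left out (two-sided exact permutation test, p = 0.0119 to 0.0278).

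Of 138 named genes tested, 137 kept their side of the threshold with DESeq2, 95 with the GC offset, 67 with the GC and length offset and 2 with the covariate, 77 with the CD libraries also fitted and 75 without low weight gainer replicate 23. The 2 with the covariate were Lepr and Fshr, not called in the main fit either. None of the 136 named calls was kept with it. The 67 and the 77 also include both of these genes. The sign turned with the covariate in Aars (-0.043), Amhr2 (-0.10), Cebpb (-0.17), Pik3r2 (-0.35), Tap1 (-0.085), Irf7 (-0.14), Hsf1 (-0.51) and Tap2 (-0.89), and with the GC and length offset in Cox7c (0.082). Of 129 list values (counts and medians), 66 moved by over 1.5 times or beyond their spread without replicate 23, 45 without replicate 21 and 43 without replicate 22, against 46 with the GC offset and 64 with length.

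With 3 libraries in the smaller group, a single library can make or remove a call, and genes under 2.26 RPM cannot be told from 0 in the shallowest library. How the low weight gainers were picked, and whether their libraries were prepared together, is not given in the sources used here. Since slope and group were strongly correlated, a change in the cells that follows GC content and a GC trend of library preparation cannot be told apart.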

Other observations

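A pair of genes was called even with the GC slope of each library as a covariate, and both were picked out after their values were seen. Phactr2, a regulator of actin and of a protein phosphatase, had 290, 527 and 345 RPM in low weight gainer replicates 21, 22 and 23 and 56.7 to 116 RPM, median 73.8, in 16-week HFD. The highest level was in replicate 22, the low weight gainer library with the flattest GC slope. Its log2 fold change was 2.11 on the counts as deposited (edgeR's quasi-likelihood test, adjusted p = 0.000445), 2.40 with the GC offset (0.000103) and 3.25 with the covariate (0.00423), at a GC content of 44.5%. Dzip3, a ubiquitin ligase, had 18.7, 12.7 and 24 RPM against 21.9 to 76.5 RPM, median 50.9, so replicate 23 overlapped the HFD range. It was at -1.55 as deposited (adjusted p = 0.00274), at -0.98 with the GC offset (0.0671) and at -2.79 with the covariate (0.0426).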
